A study of Mus musculus with 2 samples.

Results

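Mitochondrial ribosomal protein genes were examined in growth plate cartilage of wild-type C57BL/6J mouse embryos at stage E17.5. They were taken as every gene with a probe set whose single symbol was Mrpl or Mrps followed by a number and, where present, a letter a to c. This gave 76 genes among 18193 genes named alone by a probe set, 47 of them with large subunit symbols and 29 with small subunit symbols. Femoral cartilage plate RNA was hybridised to 2 Affymetrix arrays, 1 for a portion rich in round chondrocytes and 1 for a portion rich in columnar and hypertrophic chondrocytes. Neither group carried a transgene or deletion or had a named treatment, and each RNA was a mixture of 3 portions, so animals and portions were not measured apart. The spread between mixtures was not measured, and each comparison below is a description of 2 arrays with no test.

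Mitochondrial ribosomes translate the few proteins encoded by mitochondrial DNA, all of them subunits of the respiratory chain and ATP synthase. Their RNA is made inside the organelle, whereas every ribosomal protein is encoded in the nucleus, translated in the cytosol and imported. The large subunit joins amino acids and releases the chain at its tunnel exit next to the inner membrane, and the small subunit binds mRNA and reads its codons. Some of the proteins have counterparts in bacterial ribosomes and others are found in mitochondria only.

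The marker genes taken for each portion differed in the direction of its label. These marker lists were chosen with earlier results of these data known, so their counts are no check of the labels. Of 5 hypertrophic markers, 5 had at least 2-fold more signal on the columnar/hypertrophic array, and of 5 round and resting markers, 5 were at least 2-fold lower. Of 6 general chondrocyte markers, 0 differed by 2-fold, and the collagen gene Col2a1 gave 33307 and 37936 on the round and columnar/hypertrophic arrays. Perichondrium and tendon markers also differed, with 5 of the 6 that were measured at least 2-fold lower and a summed signal over the list of 82124 against 26022. Sp7, a transcription factor gene of osteoblasts and hypertrophic chondrocytes, had signals of 170.3 and 1939.6, and the bone matrix gene Ibsp 0.941 and 124. Endothelial markers (4 of 4) and the erythroid markers named on the array (2 of 2) were under the detection floor described below on both arrays. Skeletal muscle markers had summed signals of 338 and 545 and went both ways. Myh3 and Myog were under the floor on both arrays, and Tnnt3 had 63.4 and 429. Acta1, at 121.6 and 88.4, and Ckm, at 103 and 18.1, were above the floor on the round array only. In the macrophage and osteoclast list, Lyz2 had signals of 130.1 and 293, Ctsk 803 and 522, Csf1r 190.2 and 129 and Cd68 130.3 and 70.5. The part of fibrous tissue and of these other cells in the differences below was not tested.

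A signal is the MAS5 value of a probe set on a linear scale, and a difference is a log2 ratio with the round array as the base, so that positive values stand for more signal in columnar/hypertrophic cartilage. Signals under a floor of 100.9, set by probe sets of chemosensory receptor genes, count as not measured. All 76 genes lay above it on both arrays by the probe set used, which was the brightest of each gene. Their signals ran from 292 over a median of 1179 to 3762 on the round array, and from 199.9 over a median of 1432 to 6389 on the other. In RNA from whole tissue, a larger share of cells expressing a gene and more RNA per cell cannot be told apart.

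The mitochondrial ribosomal protein genes as a group had higher signals in columnar/hypertrophic cartilage, by small amounts. Of the 76, 62 were higher on the columnar/hypertrophic array and 14 lower, whereas 45.1% of the 11691 genes above the floor on at least 1 array were higher. Of the 8038 genes that were measured on both arrays at mean signals like those of the members, 47.8% were higher. The median difference of the members was 0.33, with quartiles of 0.092 and 0.48, against a median of -0.053 and quartiles of -0.39 and 0.28 over all measured genes. Few members differed by much. At least 2-fold higher were 2 of 76 (4.30% of all measured genes) and at least 2-fold lower 0 (6.36%). At least 1.5-fold higher were 11 of 76, or 14.5%, close to the 11.7% of all measured genes, while 0 were at least 1.5-fold lower, against 15.8% of all measured genes. The members thus differed from all measured genes mainly in how few of them lay under 0, and less in how many were far above it. For a single probe set the technical spread was 0.37, taken as the SD of log2 differences between probe sets of the same gene over 4822 genes, and 0.32 over the 32 members with several probe sets. It is no spread between replicates.

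**Figure D1:**
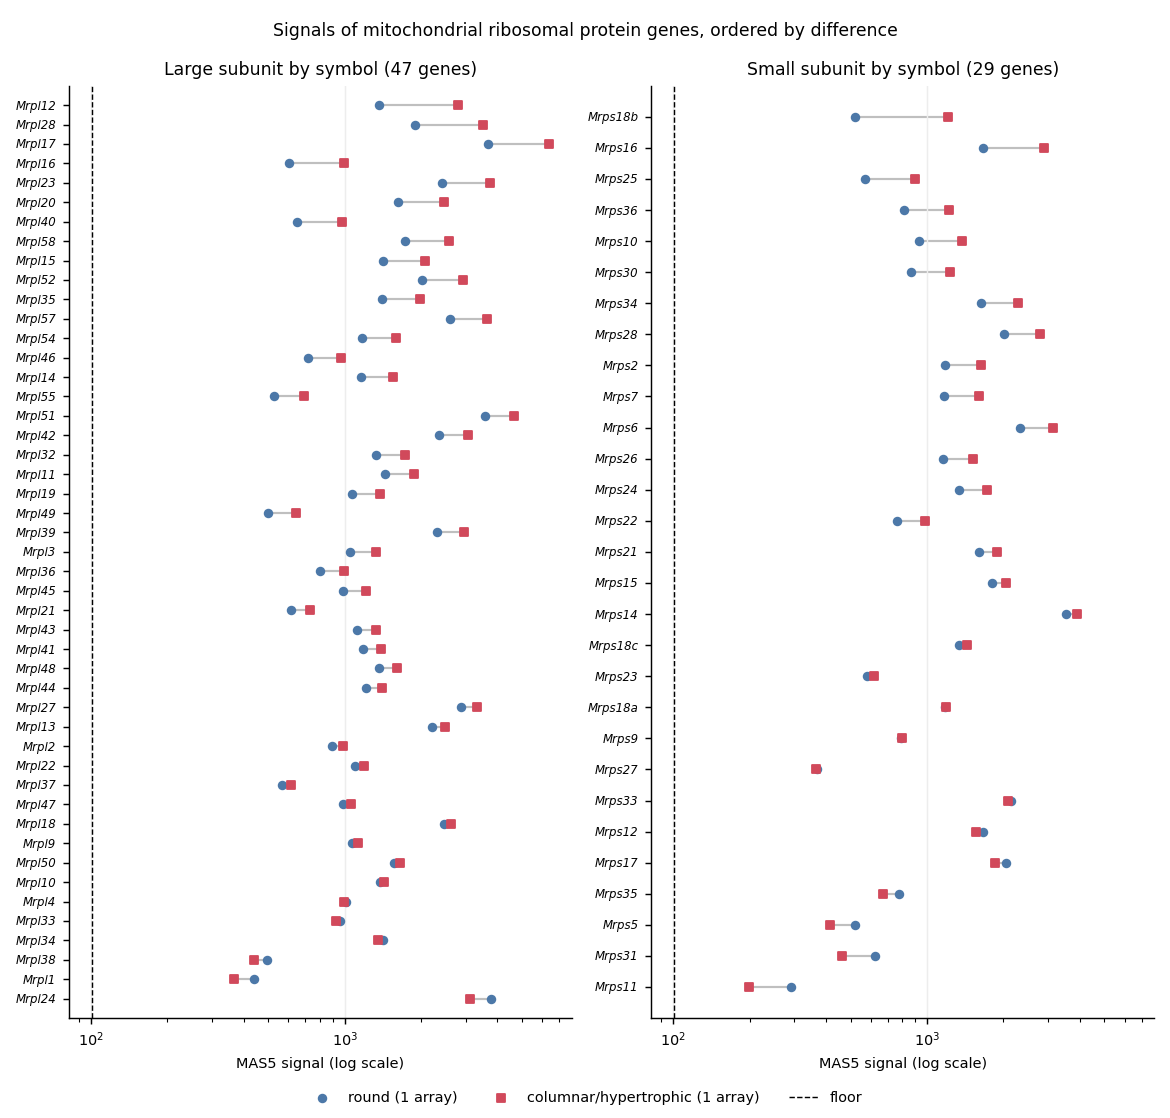
MAS5 signal (horizontal, log scale) of each of the 76 genes in round (circles) and columnar/hypertrophic cartilage (squares), from 1 array each, for large subunit genes (left) and small subunit genes (right), ordered by difference, with a dashed line at the floor of 100.9. Squares lie to the right of circles for 62 genes, Mrps18b and Mrpl12 have the widest gaps, and Mrps11 has the widest gap to the left.

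Large and small subunit genes were compared next. Of 47 large subunit genes, 41 were higher on the columnar/hypertrophic array, with a median of 0.34 and a range from -0.27 to 1.03. Of 29 small subunit genes, 21 were higher, with a median of 0.24 and a wider range, from -0.55 to 1.23. The medians differed by 0.11, with no spread between replicates to set it against. The sign of that gap was not stable. It was -0.0037 with only those probe sets whose identifiers mark no sharing between transcripts or genes, and -0.056 with the second brightest probe set of each gene that had one and the single probe set of the others. The symbol does not always give the subunit. In solved structures of mammalian mitochondrial ribosomes, the proteins of Mrps18a and Mrps30 sit in the large subunit, and that of Mrps36 is an adaptor of the 2-oxoglutarate dehydrogenase complex. With the genes placed by structure, 43 of 49 large and 18 of 26 small subunit genes were higher, with medians of 0.34 and 0.21, a gap of 0.13. Since the sign of the gap depended on the probe sets used, no order of the subunits is given.

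**Figure D2:**
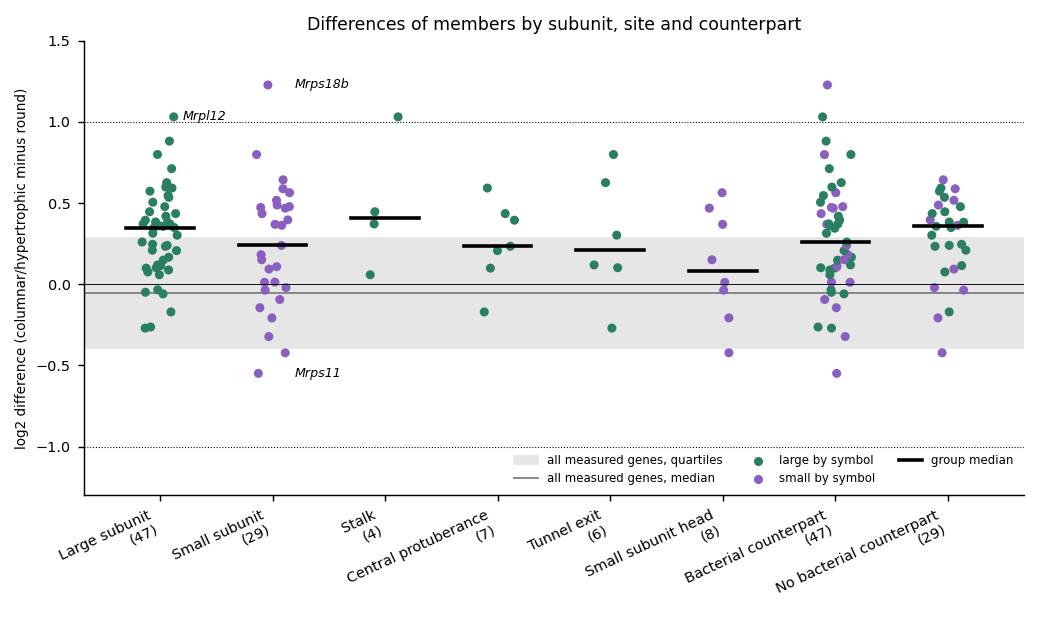
Log2 difference (vertical, columnar/hypertrophic minus round) of the members by subunit, site in the ribosome and presence of a bacterial counterpart, 1 point per gene, with group sizes in brackets and black bars for group medians; the grey band and line give the quartiles and median of all measured genes and dotted lines mark 2-fold. The large subunit median (0.34) and the small subunit median (0.24) lie close together, and every group median lies above 0.

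Of the small subunit genes, Mrps18b differed most. It encodes 1 of 3 mitochondrial relatives of bacterial ribosomal protein S18. Its single probe set had a signal of 519 for round and 1215 for columnar/hypertrophic cartilage, 2.34-fold higher, a difference of 1.23. The other relatives did not share it. Mrps18a had signals of 1179.5 and 1190.3 (0.013) and Mrps18c of 1331 and 1435 (0.11), so the 3 S18 genes ran from no visible difference to the largest of all members.

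Mrpl12 had the largest difference among large subunit genes. Its protein forms the flexible stalk that receives translation factors, and it also binds the mitochondrial RNA polymerase. The signals were 1369 and 2796, 2.04-fold higher in columnar/hypertrophic cartilage (1.03), again from 1 probe set. With quantile normalization the difference was 0.99 and after lowess centring 0.98, both just short of 2-fold. The other stalk genes were also higher but by less. Mrpl10, whose protein anchors MRPL12 to the ribosome, had signals of 1373 and 1429.8 (0.058), Mrpl11, at the stalk base, 1448 and 1873 (0.37), and Mrpl54 1169 and 1594 (0.45).

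The genes following in order were Mrpl28, Mrpl17, Mrps16, Mrpl16, Mrps25, Mrpl23, Mrpl20, Mrpl40 and Mrps36. Mrpl28, with a bacterial counterpart, had signals of 1895 and 3492 (0.88) by the probe set used, but its other probe sets gave 1311 and 1471 (0.17) and 1137 and 1125 (-0.015). Mrpl17, at the tunnel exit, had 3671 and 6389 (0.80), and its other fully measured probe set 138 and 114 (-0.27). The 1.5-fold differences of Mrpl28 and Mrpl17 thus rested on 1 probe set each. Mrps16, a conserved protein of the small subunit whose human counterpart is mutated in respiratory chain deficiency, had signals of 1658 and 2884 (0.80), with 1 probe set. Mrpl16, near the peptidyl transferase centre, had 605 and 991 (0.71), and Mrps25, found in mitochondria only, 572 and 893 (0.64) and, by another probe set, 264 and 305 (0.21). For Mrps25 the probe sets shared the direction and not the size. The last 4 of the 11 lay at or just over 1.5-fold, with Mrpl23 at the tunnel exit at 2419.5 and 3733 (0.63), Mrpl20 at 1619 and 2452 (0.60), Mrpl40 of the central protuberance at 649.6 and 979 (0.59) and Mrps36 at 815 and 1225 (0.59). Mrpl16 and these last 4 also had 1 probe set each. None of the 11 genes thus passed 1.5-fold by a second probe set. Just under 1.5-fold came Mrpl58, which encodes a peptide-releasing hydrolase built into the large subunit (0.57), and Mrps10 (0.56). Neighbours in this order differed by less than the technical spread, and the order within the 9 genes is not a ranking.

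At the other end, 14 genes had lower signals on the columnar/hypertrophic array. Mrps11, on the platform of the small subunit where mRNA leaves, was lowest, with signals of 292 and 199.9, 1.46-fold lower (-0.55), and a second probe set under the floor on both arrays. Mrps31, in the head of the small subunit, had signals of 621 and 464 (-0.42), and Mrps5, at the mRNA entry, 519.5 and 416 (-0.32). Only Mrps11 and Mrps31 were lower by more than the technical spread of 0.37. For Mrps5, 3 other probe sets gave 0.12, 0.23 and 0.38, so its direction was not settled. Mrpl24, whose protein lies near the tunnel exit, had signals of 3762 and 3119 (-0.27), and Mrpl1, of the mobile stalk at the tRNA exit site, 441 and 367 (-0.26) with 191 and 233 (0.29) in its other probe set above the floor. Mrps35 followed with 776 and 672 (-0.21). With equal array medians only Mrps11 (-0.27), Mrps31 and Mrps5 stayed under 0. The other 8 lower genes were Mrpl38, Mrps17, Mrps12, Mrpl34, Mrpl33, Mrps33, Mrpl4 and Mrps27, between -0.17 and -0.021.

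Promoter sequences are given for Mrps18b, Mrpl12 and Mrps11, the members at either end of the order, to show the kind of promoter these genes have. Each is the RefSeq sequence of assembly GRCm38.p6 from 250 bases before to 50 bases after the annotated start, 5′ to 3′ on the strand of the gene. Capitals mark matches, on either strand, to 3 motifs that are common in promoters of genes for mitochondrial proteins. These are the NRF1 motif (GCGC, any base, then TGCGC), the core of ETS factors such as GABPA (CCGGAAG) and the YY1 motif (AAGATGGCG).
Mrps18b, chr17:35916391-35916690, minus strand: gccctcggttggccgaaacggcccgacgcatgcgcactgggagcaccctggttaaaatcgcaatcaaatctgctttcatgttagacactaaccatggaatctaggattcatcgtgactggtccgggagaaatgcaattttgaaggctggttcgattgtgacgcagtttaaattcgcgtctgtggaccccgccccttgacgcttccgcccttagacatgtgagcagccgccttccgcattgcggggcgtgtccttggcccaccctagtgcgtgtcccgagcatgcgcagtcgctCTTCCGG
Mrpl12, chr11:120484387-120484686, plus strand: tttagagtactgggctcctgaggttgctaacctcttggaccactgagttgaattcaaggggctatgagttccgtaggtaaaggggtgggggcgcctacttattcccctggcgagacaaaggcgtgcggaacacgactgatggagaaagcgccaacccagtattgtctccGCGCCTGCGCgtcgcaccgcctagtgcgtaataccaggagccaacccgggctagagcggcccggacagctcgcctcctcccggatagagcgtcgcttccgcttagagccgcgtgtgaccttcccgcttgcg
Mrps11, chr7:78782881-78783180, plus strand: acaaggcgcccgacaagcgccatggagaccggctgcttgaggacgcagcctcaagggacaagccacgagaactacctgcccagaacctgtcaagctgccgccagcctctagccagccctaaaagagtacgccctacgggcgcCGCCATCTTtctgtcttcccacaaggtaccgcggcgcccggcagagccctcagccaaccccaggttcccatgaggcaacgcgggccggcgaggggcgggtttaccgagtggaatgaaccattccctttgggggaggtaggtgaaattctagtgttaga
Each of the 3 windows held 1 match to a different motif. The ETS core began at base 44 after the start in Mrps18b, the NRF1 motif 81 bases before the start in Mrpl12, and the YY1 motif 108 bases before it in Mrps11. The ETS and YY1 matches lie on the opposite strand and so read as reverse complements.

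Promoters were found by Entrez identifier for 67 of the 76 genes, with 73 start sites. The ETS core was present in 34.2% of these 73 windows, in 8.86% of all 32851 windows in the table and in 18.5% of the 10690 windows of genes above the floor on both arrays. The NRF1 motif was present in 16.4%, 4.60% and 10.8% of them, and the YY1 motif in 11.0%, 1.40% and 3.23%. All 3 motifs were thus met more often among members than among genes expressed here, without a test. For other motifs the shares were close together or lower among members. The SP1 box GGGCGG was present in 53.4% of member windows and 64.6% of windows of expressed genes, CCAAT in 39.7% and 38.2%, the E-box CACGTG in 9.59% and 10.1%, and the TATA letters TATAAA in 6.85% and 6.78%. The presence of a motif did not go with a steady difference between the arrays. Members with the ETS core had a median of 0.24 (25 genes, 20 higher) and those without it 0.36 (42 genes, 36 higher), the 12 genes with the NRF1 motif were all higher with a median of 0.36, against 0.26 over the other 55 (44 higher), and the 8 with the YY1 motif had a median of 0.21 (6 higher).

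Some of these genes start next to another gene transcribed the opposite way. For 25 of the 67 genes, or 37.3%, the table held a start site of another gene on the other strand within 1000 bases upstream. The same held for 12.3% of the 27025 genes in the table and 21.4% of the 8354 above the floor on both arrays, without a test. In 1 case both were members. Mrps11 and Mrpl46 start 42 bases apart, and Mrpl46, of the central protuberance, had signals of 718 and 971 (0.44) while Mrps11 had -0.55. The neighbour was outside the members and above the floor on both arrays for 20 genes. Of these 20 members, 17 were higher on the columnar/hypertrophic array, with a median of 0.24, and of their 20 neighbours 10 were higher and 10 lower, with a median of -0.047. Ppp1r10, a regulatory subunit gene of protein phosphatase 1 that starts 756 bases from Mrps18b, had signals of 300.5 and 142 (-1.08), opposite to Mrps18b. Other pairs had unlike or like signs. Helq, a DNA helicase gene 159 bases from Mrps18c, had 267 and 201 (-0.41) against 0.11, Gga3, an adaptor gene of Golgi transport 224 bases from Mrps7, 652 and 522 (-0.32) against 0.47 for Mrps7, and Twnk, the helicase gene of mitochondrial DNA 116 bases from Mrpl43, 461 and 491 (0.091) against 0.25. Among other neighbours with mitochondrial products, Sars2, the mitochondrial seryl-tRNA synthetase gene 147 bases from Mrps12, had 318 and 447 (0.49) while Mrps12 had -0.094. Ndufb5, a complex I subunit gene 308 bases from Mrpl47, had 4819 and 5399.7 (0.16) against 0.10. Members and neighbours lay on the same side of 0 in 9 of 20 pairs.

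Within the large subunit, genes were grouped by where their proteins sit. The central protuberance holds a structural tRNA in mammals in place of a bacterial rRNA, and 6 of its 7 genes were higher, with a median of 0.23. Mrpl46 and Mrpl40 are given above. Mrpl55 had signals of 525 and 689.7 (0.39), Mrpl48 1370.1 and 1611 (0.23), Mrpl27, near the peptidyl transferase centre, 2873 and 3316 (0.21) and Mrpl18 2460.3 and 2635 (0.10). Mrpl38 was the lower one, at 496 and 440.4 (-0.17). A second probe set of Mrpl27 gave a larger difference of 0.89, and a dimmer probe set of Mrpl38 went from 236 to 53.7, under the floor and at least 2.34-fold lower.

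Around the tunnel exit, 5 of 6 genes were higher (median 0.21). Beside Mrpl17, Mrpl23 and Mrpl24, Mrpl45, whose protein ties the ribosome to the inner membrane, had signals of 983 and 1212 (0.30), Mrpl22 1101 and 1195 (0.12) and Mrpl47 986 and 1058 (0.10). The exit genes spanned nearly the whole range of the large subunit, with Mrpl24 its lowest member and Mrpl17 among its highest.

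Conserved proteins of the large subunit core were mostly higher by less than 1.5-fold. Mrpl2 and Mrpl3, whose proteins reach toward the catalytic centre, had signals of 889 and 985 (0.15) and 1046 and 1329 (0.34), while Mrpl4 had 1014 and 990.1 (-0.034). Mrpl14 had 1164 and 1556 (0.42), Mrpl19 1069 and 1373 (0.36), Mrpl32 1333 and 1725 (0.37) and Mrpl36 797 and 991 (0.31). Mrpl9 (0.088), Mrpl13 (0.17), Mrpl33 (-0.049) and Mrpl34 (-0.059) lay closer to 0 than the technical spread. So did Mrpl2, Mrpl3, Mrpl4, Mrpl19, Mrpl36 and Mrpl21. Mrpl35 had 1399 and 1986 (0.50) and Mrpl21 612 and 733 (0.26). The other Mrpl35 probe sets, at 103.2 and 102.9 (-0.0053) and 124.5 and 131 (0.073), lay close to the floor and showed no such difference. Another probe set of Mrpl21 had 210 and 138 (-0.60). Among the large subunit genes with a bacterial counterpart, 24 of 29 were higher, with a median of 0.31.

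Large subunit genes without a bacterial counterpart had 17 of 18 members higher, with a median of 0.35, close to that of the conserved ones. Mrpl52 had signals of 2019.8 and 2927 (0.54), Mrpl57 2607 and 3631 (0.48) by the probe set used and 194 and 182 (-0.087) by its other one, Mrpl51 3560.1 and 4644 (0.38) and Mrpl42 2356 and 3070.1 (0.38). Mrpl39, related to threonyl-tRNA synthetases, had 2314 and 2947 (0.35), and Mrpl44, with a ribonuclease III fold, 1209 and 1398 (0.21). Mrpl41 (0.24), Mrpl43 (0.25), Mrpl37 (0.11) and Mrpl50 (0.076) differed by less. Mrpl49 had 501 and 642 (0.36) by the probe set used and 548 and 412 (-0.41) by another. Over both subunits, 38 of 47 genes with a counterpart and 24 of 29 without were higher, with medians of 0.26 and 0.36. The order of these medians was not stable, since quantile normalization gave 0.32 and 0.30.

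In the small subunit, head genes were more evenly divided. Of 8, 5 were higher, with a median of 0.081 and a range from -0.42 to 0.56. Mrps10 had signals of 929.8 and 1374 (0.56), Mrps7 1162 and 1607 (0.47) and Mrps24 1337 and 1726 (0.37), and Mrps14 3524 and 3912 (0.15). Mrps33 (-0.037), Mrps35 and Mrps31 were lower. Mrps9 had 791 and 797 (0.012) by the probe set used, while its 3 other probe sets gave -0.062, -0.42 and -0.84. A dimmer probe set of Mrps10 went from 211 to 45.6, under the floor and at least 2.09-fold lower, against the direction of the one used.

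Of the remaining small subunit genes, Mrps2, between head and body, had signals of 1179 and 1637 (0.47), Mrps28 2002 and 2789 (0.48) and Mrps6 2318 and 3134 (0.43). Mrps34, found in mitochondria only, had 1634 and 2291 (0.49), Mrps26 1152 and 1516 (0.40) and Mrps22, mutated in a human mitochondrial disease, 764 and 983 (0.36). Mrps15 (0.18) and Mrps17 (-0.14) lay nearer 0, as did Mrps12, the decoding centre protein, at 1657 and 1552 (-0.094), and Mrps27 at 370.3 and 365 (-0.021). Mrps21 had 1596 and 1884 (0.24), but a dimmer probe set 199 and 101 (-0.98), the lowest difference of any member probe set measured on both arrays. The columnar/hypertrophic signal of that probe set lay just over the floor of 100.9. Mrps23 had 581 and 619 (0.093), with 448 and 660.2 (0.56) and 138 and 128 (-0.10) by its others. Mrps30, placed in the large subunit by structure, had 864 and 1236 (0.52).

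Several probe sets of a gene gave a technical check on the same 2 RNA mixtures. The 76 genes had 156 probe sets, of which 129 were above the floor on both arrays, 6 on 1 array and 21 on neither. Of the 129, 97 were higher on the columnar/hypertrophic array, with a median of 0.23. For 32 genes, several probe sets passed the floor on both arrays. The probe set used was higher for 29 of them, and the second brightest was also higher for 20 of the 29. It was lower for 3, and the second brightest was lower for 0 of the 3. All probe sets above the floor lay on the same side of 0 for 13 of the 32 genes, and for 12 they lay on both sides and spread over more than 0.5. Over these 32 genes the median was 0.30 by the probe set used and 0.19 by the second. Directions of single genes near 0 were therefore not settled by a single probe set. Mrpl15, the gene with most probe sets, had signals of 1413 and 2064 (0.55) by the one used, with 5 of 6 above 0, between 0.015 and 0.74, and 1 at -0.059. Of the 6 probe sets above the floor on 1 array, 4 were lower and 2 higher on the columnar/hypertrophic array.

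**Figure D3:**
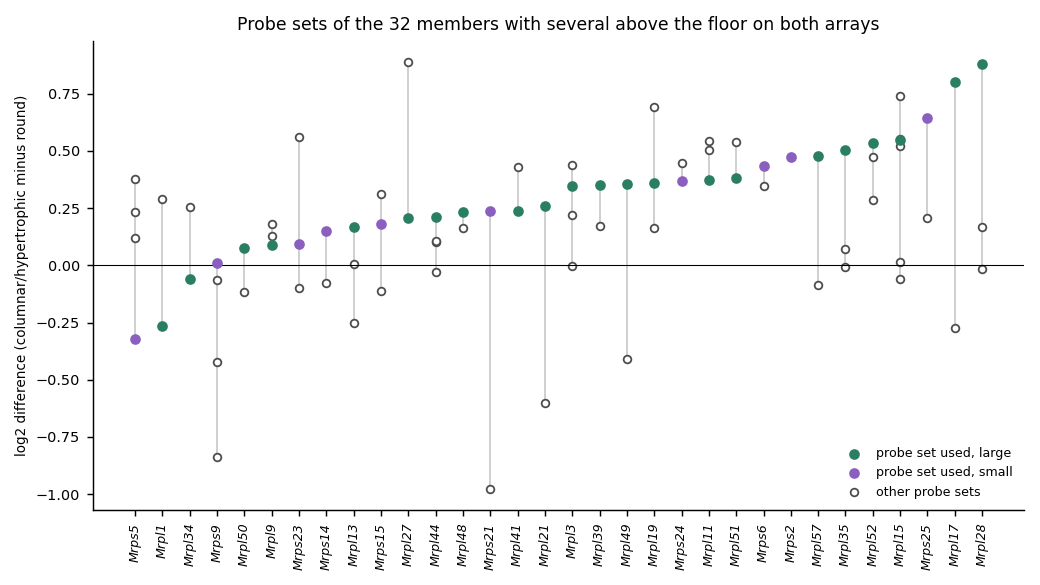
Log2 difference (vertical, columnar/hypertrophic minus round) of each probe set that passed the floor on both arrays, for the 32 members with several, filled points for the probe set used and open points for the others, joined by a line per gene. The probe set used lies above 0 for 29 genes, and the lines of Mrps21, Mrps9, Mrpl21 and Mrpl17 reach from above 0 to well under it.

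Other genes of mitochondrial translation were set beside the ribosomal proteins. Subunits under other symbols were higher in 4 of 4 cases (median 0.18), the GTP-binding Dap3 (0.067), the pentatricopeptide protein gene Ptcd3 (0.023), Chchd1 (0.29) and Gadd45gip1 (0.29). Of 13 genes in a wide list of translation factors, 7 were higher, with a median of 0.24. That list also held Mtfmt, Oxa1l, Lrpprc and Slirp, which are not translation factors in the strict sense. Of the 13, 12 were higher with equal array medians and 10 with quantile normalization or lowess centring. Tufm, the elongation factor that brings tRNAs, had signals of 514 and 787 (0.61), the ribosome recycling factor gene Mrrf 581 and 988 (0.77), and the GTPase gene Guf1 377 and 211 (-0.84). Mitochondrial tRNA synthetases had 7 of 15 higher and a median of -0.16, from Cars2 (-0.63) to Tars2 (0.63). With equal array medians that median was 0.12, and with quantile normalization -0.050. Genes for assembly of the ribosome and modification of its RNA had 13 of 24 higher and a median of 0.032, with the assembly GTPase gene Mtg2 at 439 and 263 (-0.74), Mettl17 at 548 and 355 (-0.63) and Mpv17l2 at 256 and 395 (0.62). Their median was 0.31 with equal array medians (18 higher), 0.12 with quantile normalization and 0.099 after lowess centring (15 higher in both). In all 4 lists, 0 genes differed by 2-fold, and as deposited the last 3 had a smaller share of higher genes than the ribosomal proteins, a difference that was not tested.

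Genes for mitochondrial DNA upkeep and transcription had 6 of 11 higher (median 0.039). The mitochondrial RNA polymerase gene Polrmt had signals of 789 and 565 (-0.48), against the difference of 1.03 for its partner Mrpl12, and the single-strand binding protein gene Ssbp1 had 6316 and 8042 (0.35). Of 9 regulator genes measured, 6 were higher (median 0.077, and -0.017 with 4 higher after lowess centring). Myc, a transcription factor of growth and ribosome production, alone passed 2-fold, with signals of 975 and 2494 (1.36). Nrf1, whose product binds the NRF1 motif, had 533 and 378 (-0.49). ND5 was the one mitochondrially encoded gene named on the array, with signals of 10057 and 9247 (-0.12) and a difference of 0.16 with equal array medians.

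Respiratory chain and cytosolic ribosome genes had counts and sizes of difference near those of the mitochondrial ribosomal proteins, but those of the cytosolic ribosome were lost under 2 of 3 other scalings. For genes with Nduf symbols, counted as complex I, 26 of 33 were higher (median 0.26), for complexes III and IV 17 of 18 (0.36), and for ATP synthase 15 of 15 (0.31). Ndufa4, placed in the complex I count by its symbol only, had signals of 3305 and 6173 (0.90). Uqcrq, of complex III, had 1634 and 3091 (0.92), the cytochrome c1 gene Cyc1 2131 and 3985 (0.90) and the ATP synthase gene Atp5e 4266 and 7593 (0.83). Complex II, all of whose subunits are encoded in the nucleus, had 4 of 4 higher (0.35). Of 44 measured cytosolic ribosomal protein genes, 41 were higher (median 0.22), and the paralogue Rpl39l alone passed 2-fold, with signals of 1399.7 and 2920.4 (1.06). With equal array medians 44 of the 44 were higher (median 0.50), with quantile normalization 29 (median 0.034), and after lowess centring 21 (-0.0098). The mitochondrial ribosomal proteins kept 63 of 76 higher under either, with medians of 0.31 and 0.30. Complex I had 24 and 22 of 33 higher (0.18 and 0.14), complexes III and IV 16 and 15 of 18 (0.25 and 0.20) and ATP synthase 13 of 15 under both (0.20 and 0.16), and complex II 3 of 4 under both (0.26 and 0.25). Most cytosolic ribosomal protein genes were far brighter than any member, such as Rps29 with signals of 40148 and 46496. Quantile normalization and lowess centring adjust by signal level and can take out a shift shared by the brightest genes. Whether the contrast with the members goes beyond brightness was not tested. Differences of the members from these lists were not tested.

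**Figure D4:**
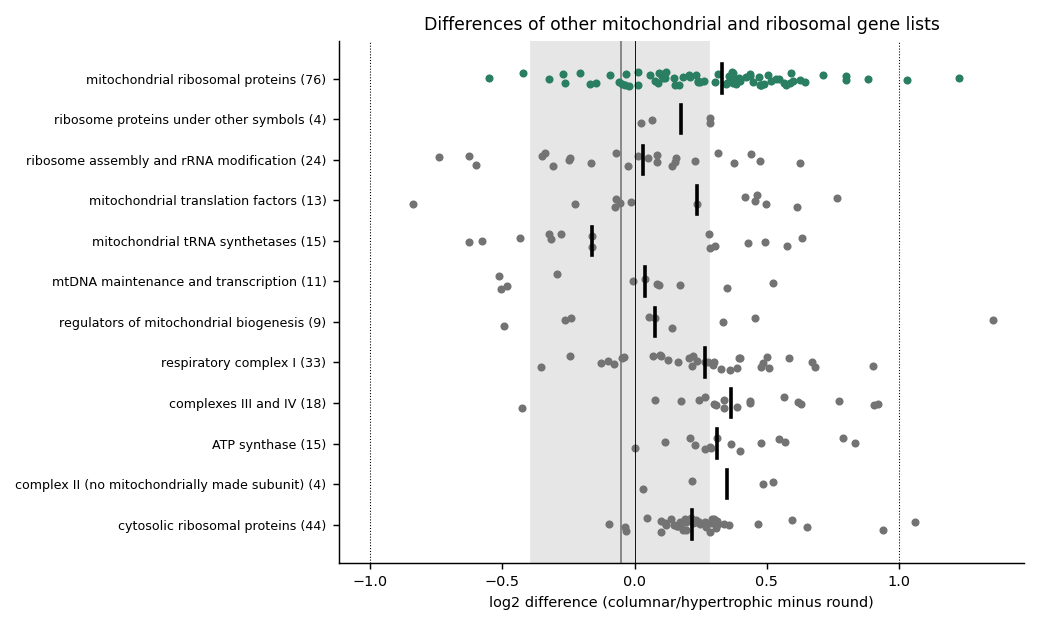
Log2 difference (horizontal, columnar/hypertrophic minus round) of the mitochondrial ribosomal protein genes (top) and of 11 other lists, 1 point per measured gene, with the number of genes in brackets and black bars for medians; the grey band and line give the quartiles and median of all measured genes and dotted lines mark 2-fold. Medians of the respiratory lists (0.26 to 0.36) and of the cytosolic ribosomal proteins (0.22) lie near that of the members (0.33), and that of the mitochondrial tRNA synthetases (-0.16) lies under 0.

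The excess of higher genes depended in size on how the arrays were scaled and which probe sets were used. Equal medians for both arrays moved the median of all measured genes to 0.22 and that of the members to 0.61. Relative to the median of all measured genes, the members' median lay between 0.24 (mean of each gene's probe sets) and 0.39 (floor at the 90th percentile) over 10 ways of processing.

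**Figure D5:**
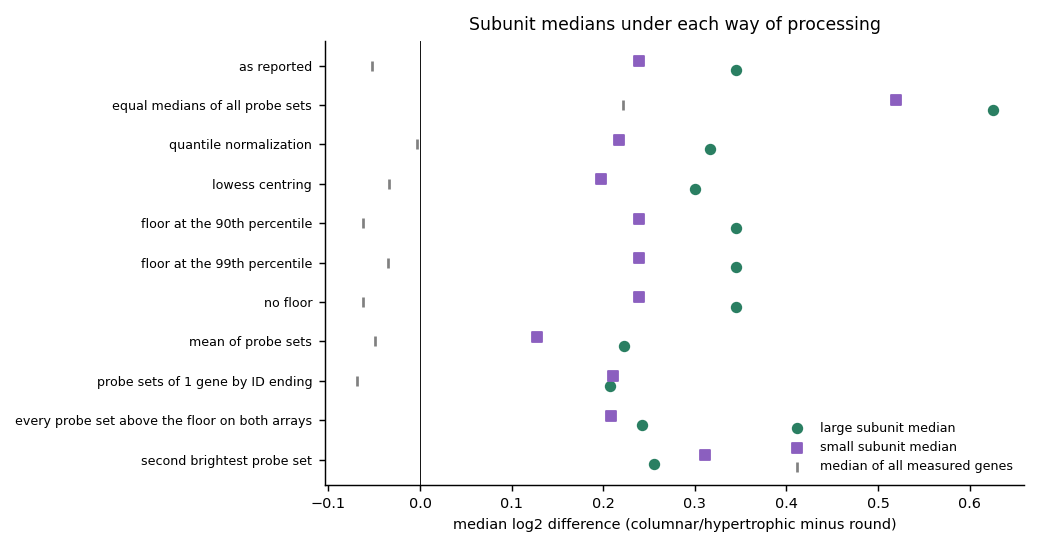
Median log2 difference (horizontal, columnar/hypertrophic minus round) of the large subunit genes (circles) and small subunit genes (squares), and of all measured genes (grey ticks, not computed for the lowest pair of settings), under each way of processing (vertical). Both subunit medians lie above 0 and above that of all measured genes in each row that has it, and the small subunit median passes the large one in the rows for probe sets of 1 gene and the second brightest probe set.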

How the data were processed

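Expression had been measured on 2 Affymetrix mouse arrays, 1 per group. The authors deposited intensities, as a linear signal per probe set (45101 in all). MAS5 is named in the submitters' processing notes, without a version. It subtracts background and multiplies each array so that a trimmed mean is shared, which was 500.0 on both once 2% of probe sets at either end were left out; the medians were 128 (round) and 105. The study's methods name RMA, a log-scale method, but the values were linear. This scaling assumes comparable total signal, and precision is limited by the number of arrays.

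The platform annotation named probe sets (34945 with 1 symbol; 932 with several were left out, among them 4 naming a member). Promoters came from RefSeq tables of assembly GRCm38.p6. The floor was the 95th percentile of 85 chemosensory receptor probe sets over both arrays, and lower signals were set to it ahead of the log2 step. Each gene was read from its brightest probe set (mean log2 signal). No test, p-value or standard error was computed. Python 3.11.15 with pandas 2.3.3 and statsmodels 0.14.6 (lowess span 0.3) was used, tested on simulated data.

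The rule named the 6 members with the largest differences in each direction, those past 1.5-fold, those with discordant probe sets and those of 4 sites, and up to 3 genes per list. The other members, Polrmt, Ssbp1, Nrf1, Tufm, Acta1, Ckm, Csf1r, Cd68, Ctsk and the neighbouring genes were added after their values were seen. Members and lists were chosen with earlier results of these data known, and sites were assigned from general knowledge of ribosome structures. Alternatives were other scalings, floors and probe set choices; every probe set, the second brightest and the scalings for lists and member groups were added after the data were seen.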

Additional observations from a re-analysis of the deposited data

How the results depend on the processing

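The counts and medians of the members were recomputed in 80 alternative values, of which 64 stayed within 0.1 for a median or 1.5 times for a count. Some of these 64 could not have moved. All probe sets used lay above every floor tried. Other floors, no floor, and a limit to genes above it on both arrays thus returned the same member values. Equal array medians shift every gene alike and cannot move the gap between the subunits. The 64 are therefore no measure of stability. With equal array medians, 5 members were at least 2-fold higher and the medians were 0.61 over all, 0.63 for the large and 0.52 for the small subunit. With quantile normalization and with lowess centring 1 member was at least 2-fold higher, since Mrpl12 was just under. When all probe sets of a gene were averaged, medians were 0.19, 0.22 and 0.13. With only probe sets whose identifiers mark no sharing, 61 members were left. Mrps18b dropped out, so its difference had no value under this setting. At least 2-fold higher was 1 member (Mrpl12) and at least 2-fold lower 1 (Mrpl38, by its dimmer probe set). The median was 0.21 over all and 0.21 for the large subunit, and the gap between the subunits was -0.0037. That gap was -0.056 with the second brightest probe set, and with every probe set counted the large subunit median was 0.24. For 17 single members followed over 132 values, 6 values changed sign. These were values of Mrpl1, Mrpl24 and Mrps35 with equal array medians, and of Mrpl1, Mrps5 and Mrpl17 when other probe sets were used. More than the technical spread separated 5 values from those reported, for Mrpl17, Mrpl28 and Mrps5, when other probe sets were used. No paired analysis was possible because each group is 1 array, and no array could be left out. Floors at the 90th and 99th percentile, and none, left all these counts and medians as they were.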
